A study of Mus musculus with 11 samples.

Results

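The genes described here encode the proteins of the cytoplasmic ribosome, together with Gas5, a non-coding gene whose introns carry small nucleolar RNAs (snoRNAs). Members were the probe sets annotated to exactly 1 gene whose symbol starts with Rpl or Rps followed by a digit, or is Rpsa or Gas5. Symbols of S6 kinases and of pseudogenes were left out. The choice gave 46 ribosomal protein genes on 98 probe sets and Gas5 on 4 probe sets, so 47 of the 12393 genes with a probe set of their own. RefSeq's table of assembly GRCm38.p6 lists 86 protein-coding genes under the same symbol rule, and 45 of them were measured this way. A further 101 probe sets name a ribosomal protein gene along with another gene and give no member a value. Where a gene had several probe sets, the one with the highest mean over all 11 samples represented it.

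Livers came from 6 Gsr-null and 5 wild-type (WT) mice, all male, on the C57BL/6J background and 15 to 20 weeks old, and were taken between 2 and 4 in the afternoon. Gsr encodes glutathione reductase, which returns oxidised glutathione to its reduced form. The labels name neither the Gsr allele nor any treatment, and they call the samples biological replicates. Samples are numbered here by those biological replicate numbers; the bracketed numbers at the end of the Gsr-null titles run differently and are not used. Values are on the log2 scale of a single-colour Affymetrix array, so a difference of 1 is a 2-fold change, and the number of arrays limits the precision.

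A ribosome is built from ribosomal RNA and a large set of proteins, which belong either to the small subunit (Rps genes) or to the large subunit (Rpl genes). Their mRNAs start with a C followed by an unbroken run of pyrimidines, the 5′ terminal oligopyrimidine (TOP) tract, through which mTOR signalling and the protein LARP1 control their translation together. Gas5 also starts with a TOP tract. Its introns yield box C/D snoRNAs that guide methylation of ribosomal RNA, its spliced RNA is removed by nonsense-mediated decay when it is translated, and in cultured cells it accumulates in growth arrest and binds the glucocorticoid receptor.

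The start sites of these genes are shown because the TOP tract is what Gas5 shares with the ribosomal protein genes. RefSeq start sites of GRCm38.p6 were available for 40 ribosomal protein genes and for Gas5, which has 2. Each sequence runs from 20 bases before the annotated start to 20 bases from the start on, 5′ to 3′ on the gene's strand, and capitals mark a C at the start with the pyrimidines that follow it. The upstream Gas5 start, at chr1:161034581-161034620 on the plus strand, holds no such tract, and the downstream one, at chr1:161035146-161035185, does. Rpl14 (chr9:120571497-120571536, plus strand), Rpl35 (chr2:39005112-39005151, minus strand), Rpl38 (chr11:114668560-114668599, plus), Rps6 (chr4:86857348-86857387, minus), Rps10 (chr17:27635225-27635264, minus), Rps18 (chr17:33955646-33955685, minus) and Rps27 (chr3:90213629-90213668, minus) carry it at the annotated start, whereas Rpl4 (chr9:64173367-64173406, plus) is annotated from another base.
Gas5, upstream start: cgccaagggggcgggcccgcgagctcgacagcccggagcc
Gas5, downstream start: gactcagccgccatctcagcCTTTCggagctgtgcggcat
Rpl14: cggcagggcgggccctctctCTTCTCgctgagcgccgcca
Rpl35: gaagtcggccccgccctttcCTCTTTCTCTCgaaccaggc
Rpl38: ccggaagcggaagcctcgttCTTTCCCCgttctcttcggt
Rps6: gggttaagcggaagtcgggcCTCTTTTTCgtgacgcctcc
Rps10: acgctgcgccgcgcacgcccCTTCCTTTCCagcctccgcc
Rps18: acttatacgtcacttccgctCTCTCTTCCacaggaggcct
Rps27: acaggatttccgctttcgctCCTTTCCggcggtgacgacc
Rpl4: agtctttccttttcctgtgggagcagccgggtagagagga

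The tract of Gas5 is 5 bases long, against 6 to 11 in the 7 ribosomal protein genes that have one at the annotated start. A C at the annotated start followed by at least 4 pyrimidines was found in 7 of 40 ribosomal protein genes (17.5%) and in 3.01% of all 27025 genes with a start in the table, on the sense strand. Because annotated starts can lie a few bases off, a run of 8 pyrimidines that begins with C was also searched within 50 bases of the start. It stood in 34 of the 40 (85%), in neither Gas5 window and in 32% of all genes. The motif CCGGAAG, bound by ETS factors such as GABP, stood on either strand of the 300 bases around the start in 20 of the 40 (50%), in neither Gas5 window and in 9.93% of all genes. AAGATGGC, the YY1 motif, stood in 4 of the 40 (10%) and in 3.19% of all genes, TATAAA in 12.5% and 15.7%, and the E-box CACGTG in 10% and 8.09%, and Gas5 held none of these. These matches describe letters in a window and not bound sites.

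Gsr itself was low in the Gsr-null livers on both of its probe sets, with no overlap between the genotypes. The probe set with the higher mean ranged over 4.71 to 5.29 in Gsr-null livers, against 6.62 to 6.93 in WT livers (difference -1.83, SE 0.123, limma adjusted p = 1.82e-05). It was not analysed here whether the probes target the disrupted stretch. Hepatocyte markers matched the labelled tissue, the 8 of them averaging 13.13 to 13.51 in Gsr-null and 12.96 to 13.37 in WT samples. Markers of bile duct cells, of neutrophils and of B, T and NK lymphocytes did not pass the filter described next, but 2 Gsr-null livers stood apart in some of them. In Gsr-null sample 1 the neutrophil genes S100a8 and S100a9 had 6.63 and 6.50. In the other Gsr-null samples S100a8 was 2.72 to 3.63 and S100a9 2.74 to 3.49, and in WT samples they were 2.53 to 3.16 and 2.81 to 3.14. The B cell gene Ighm was 9.23 in Gsr-null sample 4, against 2.87 to 4.32 in the other Gsr-null and 2.56 to 4.67 in WT samples. The other 2 neutrophil markers, Camp and Ngp, were 2.90 or less in every sample, and the other 3 B cell markers, Cd79a, Cd79b and Ms4a1, 3.27 or less. As a gauge of RNA quality, the signal at the 3′ end minus that at the 5′ end was averaged over the array's Gapdh and Actb controls. This 3′ to 5′ gap was below 1 in Gsr-null samples 1, 2 and 3 (0.572 to 0.703) and in WT samples 2 and 4 (0.631 and 0.544). It was 1.2 to 1.25 in Gsr-null samples 4, 5 and 6 and 1.35 to 1.75 in WT samples 1, 3 and 5. The floor of the array, taken as its 5th percentile, was highest in Gsr-null samples 2 (1.79) and 3 (1.76) and 1.53 to 1.62 elsewhere.

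Probe sets with a log2 value above 4 in at least 5 samples were tested with limma. It called 37 of 9560 probe sets at a Benjamini-Hochberg adjusted p under 0.05, or 0.387%, and 0.432% of the 6021 genes by their representative probe sets. An unadjusted p under 0.05 was reached by 8.36% of probe sets. The genotypes did not overlap in 1.36% of probe sets, and in 0.785% of probe sets (0.864% of genes) they did so with Gsr-null lower. Of the 46 ribosomal protein genes 39 passed the filter, with 77 probe sets, and so did all 4 Gas5 probe sets.

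Gas5 fell in Gsr-null livers. On its representative probe set, 1419291_x_at, the 6 Gsr-null samples had a lowest value of 9.32, a median of 9.82 and a highest of 9.97. The 5 WT samples had 10.48, 10.52, 10.54, 10.36 and 10.68. Every Gsr-null sample lay below every WT sample, and Gsr-null sample 1 was the lowest of all. The group means were 9.77 ± 0.232 (SD, n = 6) in Gsr-null and 10.52 ± 0.115 (SD, n = 5) in WT livers. The difference was -0.74 (SE 0.129, 95% interval -1.02 to -0.46, limma adjusted p = 0.0331), which leaves 0.597 of the WT signal with an interval of 0.492 to 0.725. An exact two-sided permutation test over the samples gave p = 0.0022, the smallest that 462 splits allow. This p restates the lack of overlap, which 1.36% of tested probe sets showed. It is not adjusted for their number and adds no support of its own. Gas5 was 1 of 13 genes called lower, which are 0.216% of the genes tested (of probe sets 0.22% were called lower), and it ranked 24 by p among all tested probe sets.

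The other 3 Gas5 probe sets gave differences of the same sign and like size, without passing the test. On the second, 1449410_a_at, Gsr-null samples had a lowest value of 8.87, a median of 9.19 and a highest of 9.53, against 9.51, 10.09, 9.82, 9.72 and 10.28 in WT samples. Only Gsr-null sample 3, at 9.53, reached the range of the WT samples, whose lowest was sample 1 at 9.51. The difference was -0.70 (SE 0.173, limma adjusted p = 0.169). The remaining 2 probe sets were dimmer. The first of them, 1436222_at, had 4.64, 5.43 and 5.97 as the lowest, median and highest Gsr-null values and 6.42, 6.01, 5.86, 6.59 and 5.61 in WT samples. The groups overlapped, and the difference was -0.75 (SE 0.26, limma adjusted p = 0.4). The last, 1424843_a_at, had 3.88, 4.37 and 4.87 in Gsr-null livers and 4.80, 5.02, 4.89, 5.10 and 4.94 in WT livers. Here Gsr-null sample 1, at 4.87, overlapped the WT samples while samples 4, 5 and 6 lay close to the filter level of 4. The difference was -0.58 (SE 0.19, limma adjusted p = 0.345). Sample 1 was thus the lowest Gsr-null sample on the 2 brighter probe sets and the highest on this one, so the probe sets did not order the Gsr-null samples alike. All 4 probe sets are annotated to the same gene and are not independent replicates. The identifiers of all but 1436222_at end in _x_at or _a_at, as those of probe sets that can bind several transcripts do.

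**Figure D1:**
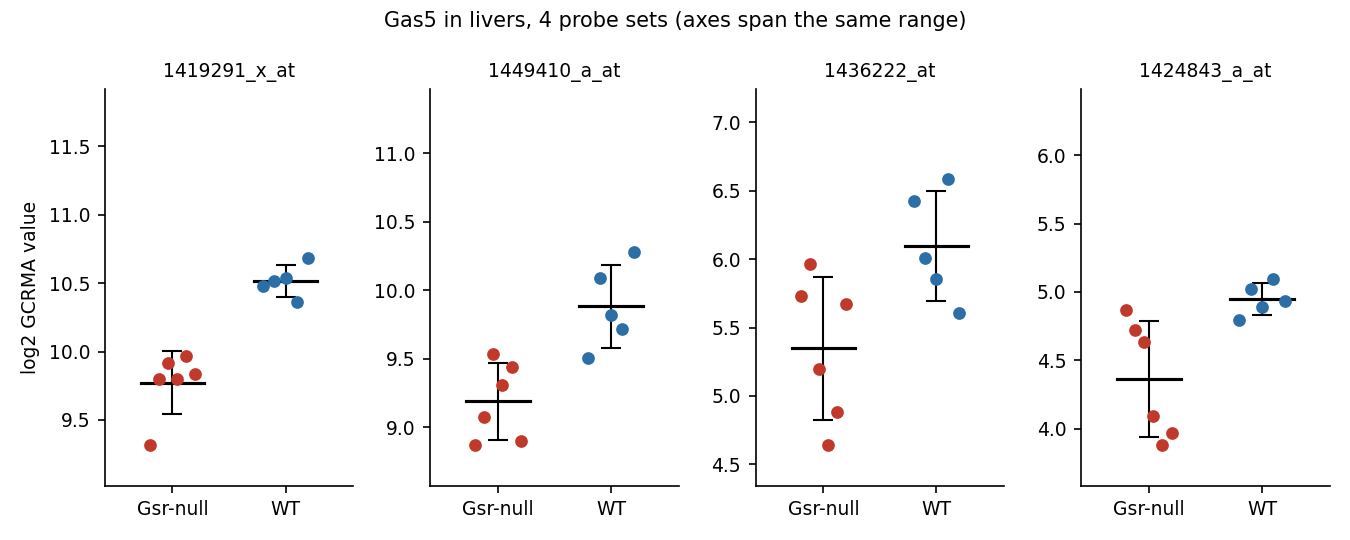
Gas5 log2 values in the 6 Gsr-null (red) and 5 WT (blue) livers on each of its 4 probe sets, with a point for each sample, a line at the mean and bars of 1 SD. The groups are apart on the leftmost probe set, with 9.97 as the highest Gsr-null and 10.36 as the lowest WT value, and overlap on the other 3.

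On the representative probe set the Gas5 difference was about as large within each set of samples with a like 3′ to 5′ gap. Among samples with the smaller gap the means were 9.68 in 3 Gsr-null and 10.44 in 2 WT livers, a difference of -0.76. Among samples with the larger gap they were 9.87 in 3 Gsr-null and 10.57 in 3 WT livers, a difference of -0.70. The second probe set gave -0.75 and -0.65 in these sets. The 2 dimmer ones gave -0.67 and -0.32 in the set with the smaller gap and -0.90 and -0.89 in the other, so their differences moved with the gap, whose part in this was not tested. With the sets as a block limma gave -0.73 and an adjusted p = 0.0238. The call was lost, with the size of the difference kept, when single samples were left out: any WT sample, or Gsr-null sample 2, 3 or 4 (differences -0.78 to -0.70, limma adjusted p = 0.0537 to 0.106). In a bulk liver sample fewer cells that make an RNA and less of it per cell cannot be told apart.

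Markers of other liver cells were set beside Gas5, and of the 16 tested markers limma called none, against 0.432% of all tested genes. With so few markers that count is near the background. An unadjusted p under 0.05 was reached by 3 of the 16, against 8.79% of all tested genes. The 3 tested stellate markers had a median difference of 0.87. Col1a2 and Col3a1, collagens of stellate cells and fibroblasts, differed by 0.89 (SE 0.295, limma adjusted p = 0.363) and by 0.87 (SE 0.493, limma adjusted p = 0.736), whereas Dcn differed by -0.10. All 6 measured stellate markers averaged 4.69 to 5.79 in Gsr-null and 4.87 to 5.03 in WT samples. The 5 tested endothelial markers had a median of -0.041, 2 with a positive and 3 with a negative sign, with Fcgr2b at -0.38 (SE 0.171, limma adjusted p = 0.579) and Lyve1 at 0.62 (SE 0.497, limma adjusted p = 0.885) at the ends. Of 7 Kupffer cell markers 2 had a positive and 5 a negative sign, with a median of -0.11. Alas2, of haem synthesis in erythroid cells, differed by 0.59 (SE 0.242, limma adjusted p = 0.509). The 8 hepatocyte markers had a median of 0.022, with 5 positive and 3 negative signs and a range of -0.11 to 0.58, and Tat, tyrosine aminotransferase, at the upper end had an unadjusted p under 0.05 (limma adjusted p = 0.559).

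The sample with high S100a8 and S100a9, Gsr-null sample 1, was also the lowest for Gas5. Without it the Gas5 difference was -0.65 (limma adjusted p = 0.0252). Without Gsr-null sample 4, which had high Ighm, it was -0.75 (limma adjusted p = 0.0652). The part of the other marker differences in that of Gas5 was not tested.

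No ribosomal protein gene passed the test. Of the 39 tested genes, limma called 0 at an adjusted p under 0.05, the smallest adjusted p being 0.501. As 0.432% of all tested genes were called, a count of 0 among 39 is near the background. An unadjusted p under 0.05 was reached by 1 of the 39, against 8.79% of all tested genes. None of the 39 genes had groups that did not overlap, against 1.51% of all tested genes. Their median difference was -0.062, beside a median of -0.032 over all tested genes. Of the 77 tested probe sets, 2 had an unadjusted p under 0.05, those of Rps6 and of Rps29. The sign was negative in 31 genes and positive in 8, or 79.5% negative beside 57.3% of all genes. The 101 probe sets that name a ribosomal protein gene with others cannot be read as 1 gene each: 86 were tested, 0 called by limma, 4 at an unadjusted p under 0.05, with a median of -0.074 and a range of -0.42 to 0.40.

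The SE of the 39 genes had a median of 0.12, beside 0.174 over all tested probe sets. The 95% interval lay wholly within 0.3 of 0 on the log2 scale in 13 genes and within 0.5 in 31. The difference itself was under 0.2 in size in 35 genes, and Rps9, Rps4l, Rps6 and Rpl35 were the exceptions. Most representative probe sets were bright: 34 of 39 averaged above 10, a level that 5.87% of all probe sets exceeded, and the highest, of Rps29, averaged 13.67 where the table's highest value was 14.72. Whether signals so near the top of the range understate differences was not tested.

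**Figure D2:**
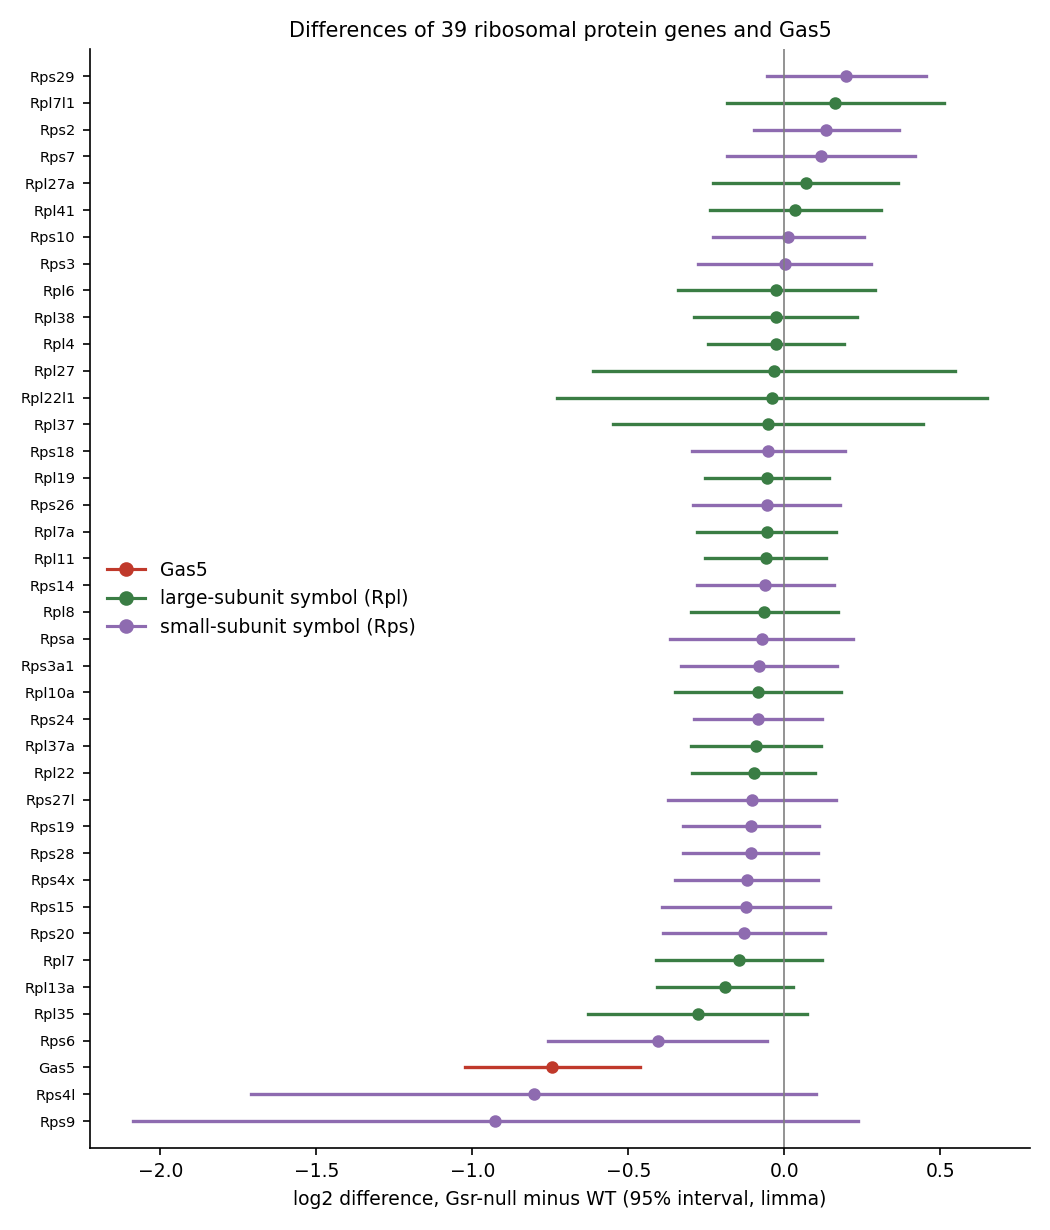
Log2 difference, Gsr-null minus WT, of Gas5 (red) and of the 39 tested ribosomal protein genes (large subunit green, small subunit purple), with 95% intervals from limma. The intervals of Gas5 at -0.74 and of Rps6 at -0.41 exclude 0, while those of Rps9 and Rps4l at -0.93 and -0.80 are wide and include 0. Only Gas5 was called by limma.

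Genes of the small subunit included the members with the largest differences. Of 20 tested, 15 had a negative and 5 a positive sign, and their median was -0.083. Rps6, the ribosomal substrate of the S6 kinases, had a lowest value of 6.10, a median of 6.52 and a highest of 6.91 in Gsr-null livers, against 6.95, 6.79, 6.98, 6.66 and 7.10 in WT livers. Gsr-null samples 4, 2 and 5 lay below all WT samples and the other 3 within their range. The difference was -0.41 (SE 0.162, limma adjusted p = 0.501), and this was the 1 ribosomal protein representative with an unadjusted p under 0.05. Rps29, a zinc-binding protein of the small subunit, differed the other way. Its Gsr-null samples had 13.57, 13.75 and 14.00 as the lowest, median and highest value, and its WT samples 13.80, 13.36, 13.59, 13.49 and 13.56. WT sample 1 lay within the Gsr-null range and the other WT samples near or below its lower end, and the difference was 0.20 (SE 0.117, limma adjusted p = 0.763). The other 2 probe sets of Rps29 gave 0.28 (SE 0.112, limma adjusted p = 0.509) and 0.15, so all 3 had a positive sign.

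Rps9, which binds early in the assembly of the small subunit, had the largest difference of all members and the least agreement between its probe sets. Its representative had a lowest value of 8.59, a median of 10.80 and a highest of 12.13 in Gsr-null samples, against 12.36, 10.42, 11.76, 12.05 and 11.28 in WT samples. Gsr-null sample 1, the sample with high S100a8 and S100a9, was far below the rest, and WT sample 2 was also low. The difference was -0.93 (SE 0.534, limma adjusted p = 0.743) and came to -0.52 without Gsr-null sample 1. The second probe set spanned 10.47 to 10.88 in Gsr-null samples and 10.67 to 10.84 in WT samples and differed by -0.049 (SE 0.112). Rps4l, which resembles the X-linked Rps4x, was near the filter level, at 3.89, 4.49 and 5.48 as lowest, median and highest in Gsr-null livers and 5.51, 4.77, 6.18, 3.99 and 6.35 in WT livers. Its spread was wide in both groups, and the difference was -0.80 (SE 0.416, limma adjusted p = 0.679). Among samples with the smaller 3′ to 5′ gap it was 0.17. Rps4x itself differed by -0.12 (SE 0.105).

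Other small-subunit members with known roles had small differences, none of them called. Rps19, mutated in Diamond-Blackfan anaemia in humans, differed by -0.11 (SE 0.1), and Rps14, which lies at the platform of the small subunit, by -0.062 (SE 0.101). Rps3, a protein of the mRNA entry site, differed by 0.0015 (SE 0.127), with an interval of -0.28 to 0.28. Rpsa, also known as the laminin receptor precursor, differed by -0.073 (SE 0.135). Rps2 and Rps7 had positive differences of 0.13 (SE 0.107) and 0.12 (SE 0.138), and Rps28, among the brightest members, -0.11 (SE 0.0998).

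Differences of the large-subunit genes covered a narrower range. Of 19 tested, 16 had a negative and 3 a positive sign, with a median of -0.056. Rpl35, which sits near the exit tunnel, had a lowest value of 10.99, a median of 11.42 and a highest of 11.86 in Gsr-null livers, against 11.97, 11.37, 11.79, 11.75 and 11.64 in WT livers. The groups overlapped, and the difference was -0.28 (SE 0.161, limma adjusted p = 0.746), with -0.17 to -0.073 on its other 4 tested probe sets. Rpl13a, part of the interferon-gamma activated inhibitor of translation in humans, had 12.55, 12.65 and 12.82 in Gsr-null and 12.90, 12.77, 12.88, 12.70 and 13.00 in WT livers. In Gsr-null samples 1, 4, 5 and 6 it lay below all WT samples, the difference was -0.19 (SE 0.0999, limma adjusted p = 0.683), and its other 3 probe sets gave -0.12, 0.032 and 0.073. Its sign was therefore not the same on all probe sets. Rpl7 differed by -0.15 (SE 0.122). Rpl11, which binds Mdm2 when ribosome assembly is disturbed, differed by -0.061 (SE 0.0897), the smallest SE of all members, with an interval of -0.26 to 0.13. Rpl4, with WT samples between 12.04 and 12.11, differed by -0.028 (SE 0.0998). Rpl27a and Rpl41 had positive differences of 0.068 (SE 0.137) and 0.035 (SE 0.126), but a probe set of Rpl41 near the filter level gave -0.31.

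Of the variant and paralogue genes of the family, Rps4l, Rpl22l1, Rps27l and Rpl7l1 were tested and none was called by limma. Rpl22l1, the paralogue of Rpl22, varied more between samples than most members, with 9.09, 9.87 and 10.71 as lowest, median and highest in Gsr-null livers and 10.67, 9.66, 9.62, 10.14 and 9.72 in WT livers. Gsr-null samples 1 and 6 and WT sample 1 were high, at 10.67 to 10.71, and the difference was -0.04 (SE 0.317), with an interval of -0.73 to 0.65. Rpl22 itself ranged over 10.14 to 10.33 in Gsr-null and 10.26 to 10.43 in WT livers, a difference of -0.099 (SE 0.0912). Rps27l, a p53 target that resembles Rps27, differed by -0.10 (SE 0.124) and had a negative sign on all 3 probe sets. Rpl7l1, a paralogue of Rpl7, had 7.23, 7.57 and 7.81 in Gsr-null livers and 7.27, 7.11, 7.67, 7.17 and 7.69 in WT livers, a difference of 0.16 (SE 0.16). Rpl3l, the form of striated muscle, and Rpl39l, the form of testis, stayed below the filter at 2.61 ± 0.218 and 1.81 ± 0.253 in Gsr-null livers (SD, n = 6) and 2.45 ± 0.195 and 1.73 ± 0.146 in WT livers (SD, n = 5). The other 5 untested members, Rpl12, Rpl14, Rpl39, Rps25 and Rps27, averaged between 2.68 and 3.97 in Gsr-null and between 2.70 and 4.03 in WT livers. All 5 also share probe sets with other symbols, which were not used for single genes.

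In most genes with several probe sets the differences spanned little, and most differences were themselves near 0. In 15 of 19 ribosomal protein genes with at least 2 tested probe sets the differences spanned less than 0.2, and the median span was 0.11. The exceptions were Rps9 with 0.878, Rpl41 with 0.379, Rpl13a with 0.264 and Rpl35 with 0.206. The sign changed between the tested probe sets of Rpl13a, Rpl41, Rps10, Rps14 and Rps20. Gas5 spanned 0.165, from -0.75 to -0.58. Of the 39 representatives, 32 had identifiers that end in _s_at, _x_at or _a_at, which can bind several transcripts. Their median difference was -0.061, and that of the 7 others -0.073.

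**Figure D3:**
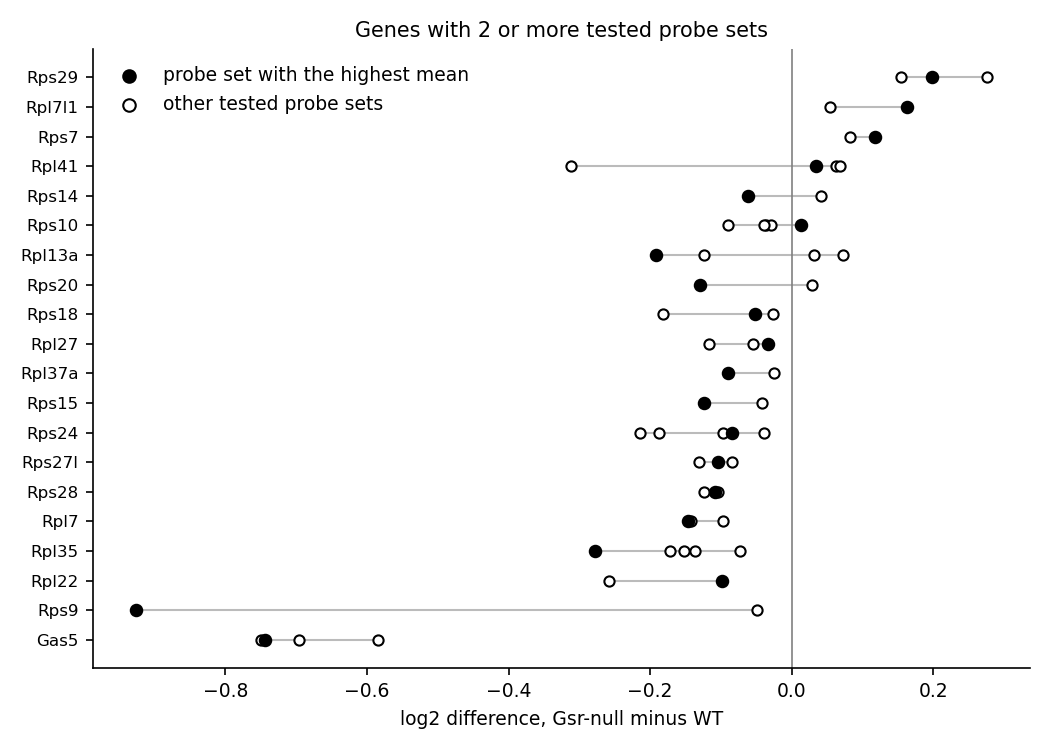
Log2 difference, Gsr-null minus WT, on each tested probe set of Gas5 and of the 19 ribosomal protein genes that have several. Filled points mark the probe set with the highest mean and open points the others. Gas5 holds -0.75 to -0.58, whereas Rps9 spreads from -0.93 to -0.049.

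Among samples the ribosomal protein genes moved together by little. Each value was set against the gene's mean over the 11 samples, and the median over the 39 genes was taken in each sample. It was 0.0068, 0.015, 0.046, -0.096, -0.083 and -0.033 in Gsr-null samples 1 to 6, and 0.0037, -0.047, 0.083, -0.047 and 0.16 in WT samples 1 to 5. WT sample 5 was the highest and Gsr-null sample 4 the lowest, and the groups overlapped. Gas5 deviated by -0.79, -0.31, -0.20, -0.31, -0.14 and -0.28 in the same Gsr-null samples and by 0.37, 0.41, 0.42, 0.25 and 0.57 in the WT samples. The sign of the ribosomal median difference changed with the 3′ to 5′ gap: it was 0.045 among samples with the smaller gap and -0.15 among samples with the larger one. The part of RNA quality in this was not tested.

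**Figure D4:**
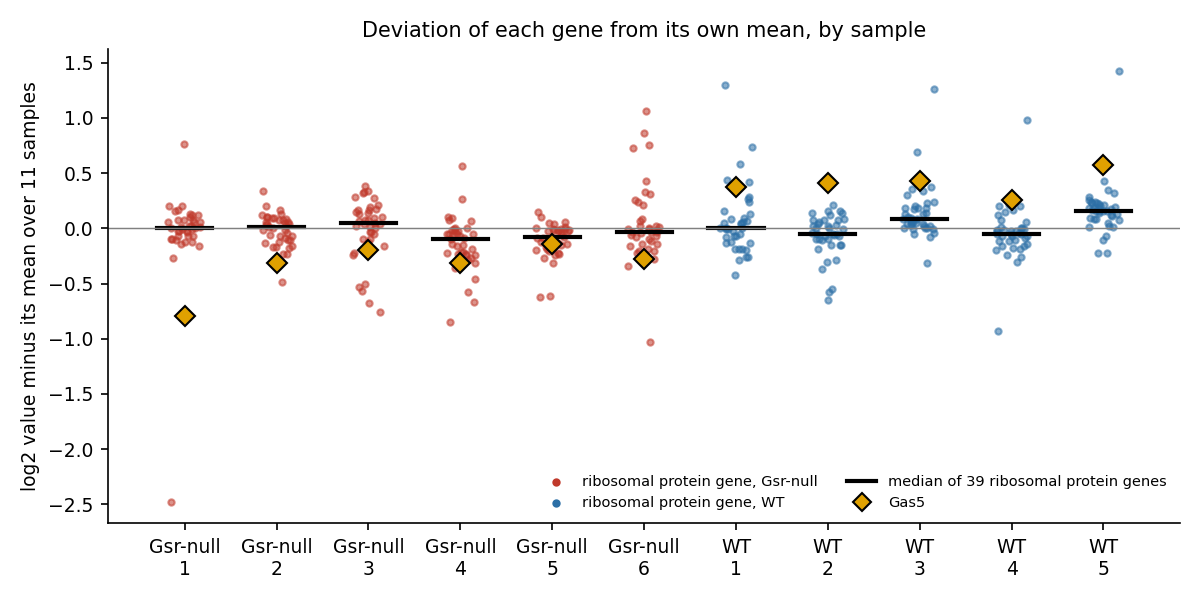
Deviation of each of the 39 ribosomal protein genes (small points) and of Gas5 (diamonds) from its own mean over 11 samples, on the log2 scale, in the 6 Gsr-null and 5 WT livers. Black lines mark the ribosomal median, which stays between -0.096 and 0.16, while Gas5 is below 0 in every Gsr-null sample and above 0 in every WT sample.

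Some probe sets varied widely within both genotypes. Those of Rpl27 and Rpl37 were picked out after their values had been seen. The representative of Rpl27, of the large subunit, was highest at 12.09 in Gsr-null sample 6 and lowest at 10.56 in Gsr-null sample 3, and ran between 10.66 in sample 2 and 11.67 in sample 1 among WT livers. Rpl37 was also highest in Gsr-null sample 6, at 9.50, and low in Gsr-null sample 3, at 8.24, but lowest in WT sample 2, at 8.19, and its highest WT value was 9.10 in sample 3. A second probe set of Rpl27 with an identifier ending in _at alone kept to 10.46 to 10.64 in Gsr-null and 10.42 to 10.87 in WT livers. Another, ending in _a_at, varied widely as the representative did, with 10.67 in Gsr-null sample 6, 9.33 in Gsr-null sample 3 and 9.44 in WT sample 2. The wide spread of Rpl27 was thus seen on 2 of its 3 tested probe sets.

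The wider pathway was described by lists, and 0 of its tested genes were called by limma. Over all tested genes, 57.3% had a negative sign, the median was -0.032 and 8.79% had an unadjusted p under 0.05. The signs, medians and p counts of each list are to be read beside these values. No list was tested as a set. Of the ribosomal genes outside the symbol rule, Rplp0, Rplp2 and Fau were measured and differed by 0.04, -0.02 and -0.12. Among 32 translation factors and other TOP mRNAs 28 had a negative sign, the median was -0.095 and 0 had an unadjusted p under 0.05. Eif3e, a subunit of initiation factor eIF3, lay between 10.27 and 10.57 in Gsr-null livers and between 10.58 and 10.74 in WT livers. It differed by -0.20 (SE 0.0973, limma adjusted p = 0.637). Its groups were barely apart, and 1.51% of all tested genes had groups without overlap. Eif4b differed by -0.26 (SE 0.138) and Eif3f by -0.14 (SE 0.0933).

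Genes of ribosome biogenesis had a negative sign in 35 of 47 tested members, with a median of -0.10 and 5 members at an unadjusted p under 0.05. Gnl3, nucleostemin, differed by -0.53 (SE 0.209, limma adjusted p = 0.487), Polr1d, a subunit of RNA polymerases I and III, by -0.47 (SE 0.182, limma adjusted p = 0.487), and Utp18, a factor of the small subunit processome, by 0.41 (SE 0.144, limma adjusted p = 0.408). Genes named for the mitochondrial ribosome, which is separate from the cytoplasmic one, were listed by symbol alone, Mrpl or Mrps followed by a digit. Whether the product of each, Mrps36 included, is a part of that ribosome was not checked. These genes were evenly split, with 37 of 74 on each side and a median of -0.00031. Among them Mrps36 differed by -0.52 (SE 0.156, limma adjusted p = 0.282), Mrpl33 by -0.30 (SE 0.113) and Mrps23 by 0.46 (SE 0.172). The genotypes did not overlap for Mrpl33, as for 1.51% of all tested genes. Of the 74, 4 had an unadjusted p under 0.05.

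Other host genes of snoRNAs and snRNAs were listed by symbol alone: Snhg followed by a digit, Zfas1, Dancr and Epb41l4aos. Whether genes with other symbols, ribosomal protein genes included, also host snoRNAs was not checked. Of the 5 tested genes of this list 4 had a negative sign, the median was -0.22, and 1 had an unadjusted p under 0.05. Snhg1 had between 6.80 and 7.75 in Gsr-null livers and between 7.50 and 8.38 in WT livers and differed by -0.48 (SE 0.214, limma adjusted p = 0.578). Snhg6 differed by -0.30 (SE 0.18) and Snhg5 by -0.22 (SE 0.165). In the mTOR pathway and among regulators of TOP mRNAs 14 of 24 were negative, with a median of -0.023 and 2 at an unadjusted p under 0.05. Lamtor1, a part of the Ragulator complex that brings mTORC1 to lysosomes, differed by 0.55 (SE 0.206, limma adjusted p = 0.464), Eif4ebp2, a repressor of cap-dependent translation, by -0.35 (SE 0.13, limma adjusted p = 0.468), and Larp4b by -0.23 (SE 0.126).

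Genes of nonsense-mediated decay had a median of -0.052 over 8 tested members, 5 of them negative, with 1 at an unadjusted p under 0.05. Etf1, a release factor of translation, differed by -0.36 (SE 0.156, limma adjusted p = 0.56), Upf2, a core factor of the decay, by -0.31 (SE 0.156), and Rbm8a, of the exon junction complex, by -0.24 (SE 0.171). Of the genes tied to p53 and the ribosome, 3 of 4 were negative with a median of -0.12 and 0 at an unadjusted p under 0.05. Nr3c1, which encodes the glucocorticoid receptor, differed by -0.18 (SE 0.108), Mdm4 by 0.17 (SE 0.162) and Ccng1 by -0.37 (SE 0.415). For all 8 lists the share called, 0, stood beside 0.432% of all tested genes, so at these list sizes a count of 0 is near the background.

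**Figure D5:**
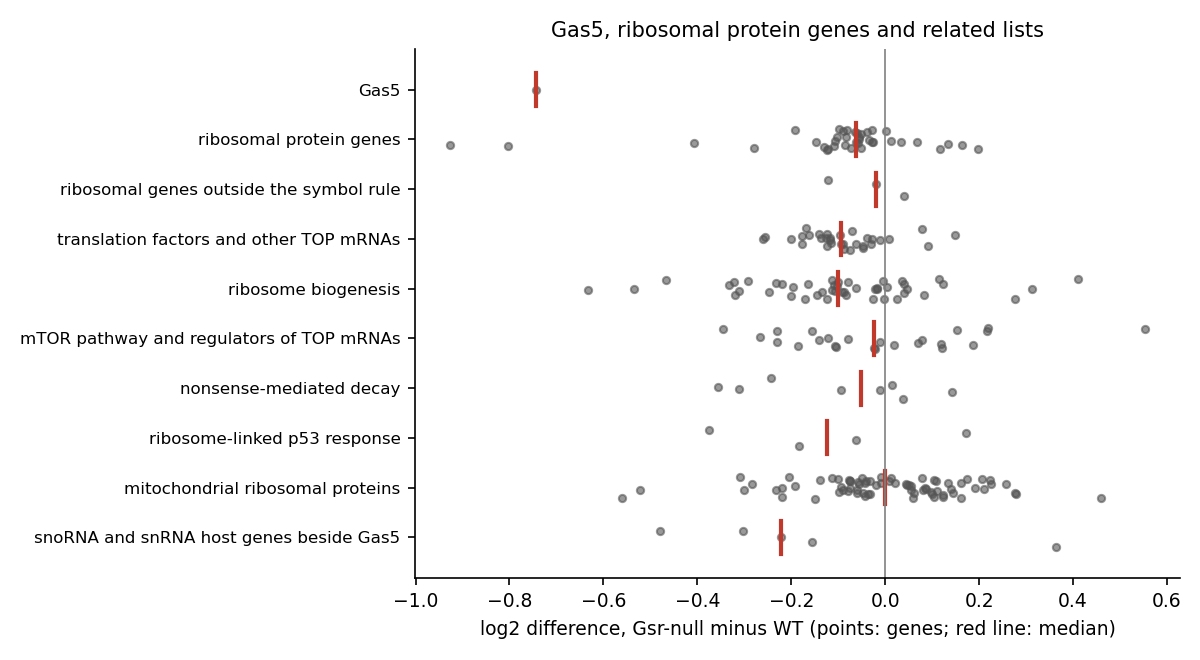
Log2 difference, Gsr-null minus WT, of Gas5, of the 39 ribosomal protein genes and of the tested members of 8 related lists. Each point is a gene and each red line a list's median. The list medians lie between -0.22 and -0.00031, and Gas5 lies at -0.74.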

How the data were processed

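Per the labels' protocols, total liver RNA of 6 Gsr-null and 5 WT mice was isolated (RiboPure) and biotin-labelled (MessageAmp II). The deposited values are log2 values per probe set, made by the authors with GCRMA, per the submitters' processing notes; the log2 scale was read from their range, and the version and filters are not given in the sources used here. Of 22690 probe sets, 64 controls were left out. The fit, Gsr-null minus WT, took the 9560 probe sets that exceeded log2 4 in 5 or more samples (limma 3.58.1, functions lmFit and eBayes, R 4.3.3), with Benjamini-Hochberg adjustment across them. Figures used matplotlib 3.10.9. The fit was also run on simulated data with noise drawn independently for each sample, and nothing here rests on the outcome.

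Symbols came from the platform annotation. Start sites came from RefSeq, build GRCm38.p6, matched by Entrez identifier for 41 of 47 members. Named members were Gas5, the 6 with the smallest p in each direction, the 3 brightest and 3 dimmest tested, a set with known roles and the paralogues. Lists were named with up to 3 members of smallest p. The members and lists were chosen with earlier results of these data known. The cell type markers given with values, Rpl27, Rpl37, Rps4x and the untested Rpl12, Rpl14, Rpl39, Rps25 and Rps27 were named after their values were seen. Other filters, thresholds, scalings and variance models were tried, as were array weights, blocks for the replicate number and the 3′ to 5′ gap, other probe sets and left-out samples.

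Replicate numbers shared by the genotypes were checked for pairing by the correlation of deviations from the group means.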

Additional observations from a re-analysis of the deposited data

Results flagged for a closer look

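A single sample lay far from the rest of its genotype in 3 of the 60 groups of values examined, and chance alone would give about 3. On its representative probe set Gas5 was 9.32 in Gsr-null sample 1, while the remaining Gsr-null livers lay at 9.80 to 9.97. On 1424843_a_at, by contrast, that sample had the highest Gsr-null value for Gas5, 4.87. S100a8 and S100a9 were also highest in that sample, at 6.63 and 6.50. Without it the Gas5 difference was -0.65 and stayed called (limma adjusted p = 0.0252). Rps2 was 12.35 in Gsr-null sample 3, against 11.99 to 12.11 in the others, and Rpl11 was 11.25 in WT sample 1, against 11.37 to 11.40.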

How the results depend on the processing

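Of 534 values of 22 named ribosomal protein genes under the alternatives, 534 stayed uncalled, with a smallest adjusted p of 0.172, and the counts of called ribosomal protein genes and list members remained 0 in each direction under all alternatives run. The Gas5 difference, -0.74, stayed between -0.79 and -0.65. It stayed called with other filters, scalings, variance models and array weights, with the 3′ to 5′ gap as a block and with the mean of its probe sets. It lost its call, with fewer samples by construction, when Gsr-null samples 2 and 3 were omitted (-0.79, limma adjusted p = 0.122), among samples with the smaller 3′ to 5′ gap (-0.76, limma adjusted p = 0.337) and among those with the larger gap (-0.70, limma adjusted p = 0.177). A threshold of 0.01 also ended the call (-0.74). Leaving out 1 sample gave -0.78 to -0.65, with the call lost in 8 of 11 cases. Taking only probe sets whose identifiers do not end in _s_at, _x_at or _a_at was run for the ribosomal protein genes but not for Gas5. The only such Gas5 probe set, 1436222_at, was not called in the main fit (-0.75, limma adjusted p = 0.4). The median of the ribosomal protein genes was -0.098 to -0.047 on leaving out 1 sample, and 0.045 and -0.15 among samples with the smaller and the larger gap. The count of called probe sets was 16 higher and 21 lower. A filter at 6 gave 7 higher and 7 lower, omitting Gsr-null samples 2 and 3 gave 6 and 4, a threshold of 0.01 gave 7 and 5, and one of 0.1 gave 25 higher. With 1 sample omitted, 9 to 24 were higher and 5 to 19 lower, moving by over 1.5 times without WT sample 5 (higher) and without any WT sample or Gsr-null sample 2 or 3 (lower). The causes were not tested beyond the fewer samples or probe sets.

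Samples with equal replicate numbers did not deviate alike. The correlation of their deviations was -0.243 to 0.0361, and for 0 of 5 numbers was it the highest that the sample had. This check cannot exclude a shared day or litter, and the bracketed numbers of the titles were not tried. With the replicate number as a block, which drops Gsr-null sample 6, limma called 2 probe sets higher and 1 lower, and Gas5 differed by -0.76 (adjusted p = 0.164).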
